A study of Mus musculus with 12 samples.

Results

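BMAL1 peaks near 52 genes of DNA damage signalling and repair were examined in control and senescent mouse adult fibroblasts (MAFs). The genes were given by name, 51 of the 52 names were found among 21864 protein-coding genes of GENCODE M21 (mm10), and the remaining name, Claspn, is not a symbol of that annotation and was not analysed here. Each peak was given to the gene whose protein-coding transcript starts closest to the peak midpoint, at any distance, distances below being from that nearest start, and a gene with at least 1 such peak in a library is said to be called in that library. A promoter peak is one of these peaks whose midpoint lies within 1000 bp of the start.

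All cells were primary MAFs kept at 3% oxygen in medium with serum, and they came from the ears of grown female mice of the C57BL6/J strain. Senescent cells had received 20 Gy of X-rays and control cells a sham exposure, and both were given 100 nM dexamethasone for 2 h, a treatment that sets cellular clocks to a common phase, and were fixed 12 h after it with 1% formaldehyde for 10 min. Each group had 3 BMAL1-ChIP-seq libraries, and no genotype differs between the groups in the labels. No source used here says whether the replicates were separate cultures or animals, so the p-values below measure the spread between these libraries, which may be technical.

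BMAL1 is the activator of the circadian clock. With its partner CLOCK it binds the E-box CACGTG, and it drives genes such as Per1, Per2, Nr1d1, Dbp and Ciart. X-rays break DNA, and lasting breaks can hold a cell in senescence through a signalling cascade: the MRE11, RAD50 and NBN complex senses a broken end, the kinases ATM and ATR pass the signal on, and the ends are rejoined either by end joining or by homologous recombination, in which the intact sister is copied. Other routes deal with lesions of single bases (base excision), bulky adducts (nucleotide excision), mispaired bases (mismatch repair) and crosslinks between strands (the Fanconi anaemia pathway).

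The lists held 2794, 3349 and 10601 peaks in control replicates 1 to 3 and 4220, 9805 and 5053 in senescent replicates 1 to 3, so control 3 and senescent 2 were the long lists of their groups. Per1, Per2, Nr1d1, Dbp and Ciart were called in all 6 libraries, each with a best peak in the top 0.251% of the list or higher. Peak lists hold no expression, so the fibroblast and senescent identities could not be checked from them. The lists also give no read depth, so a gene with no peak is one that was not called, and BMAL1 may still have been bound there.

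Clock and AP-1 sequences lay within 100 bp of the best peak's centre in several repair gene regions called in more than 1 library. They are shown because the regions carry the results that follow. Peaks of the 6 lists that shared at least 1 base were joined into regions, and CACGTG and the AP-1 words TGACTCA and TGAGTCA, each searched on both strands and with a place matched by both AP-1 words counted once, were looked for within 100 bp of the centre of the best-ranked peak. The sequences are from the plus strand of the RefSeq GRCm38 genome, the match is in capitals, and flanks are shorter where an exon lies near. Apex1, Nbn and Pms2 were added after their values were seen.
Rad51b intron, 4460 bp inside the start (chr12:79302030-79302075): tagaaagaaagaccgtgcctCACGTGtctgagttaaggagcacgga
Rad51b intron, 57290 bp inside the start, with an AP-1 word directly before an E-box (chr12:79354843-79354895): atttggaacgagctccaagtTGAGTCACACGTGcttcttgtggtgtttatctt
Rad51b intron, 174422 bp inside the start (chr12:79471996-79472042): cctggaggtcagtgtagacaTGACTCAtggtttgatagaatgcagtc
Fancc, 173247 bp past the start and inside the gene 2010111I01Rik (chr13:63258441-63258487): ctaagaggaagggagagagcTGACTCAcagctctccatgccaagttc
Ercc1, 2764 bp upstream (chr7:19341915-19341960): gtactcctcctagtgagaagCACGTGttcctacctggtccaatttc
Nbn, 607 bp inside the start (chr4:15958513-15958558): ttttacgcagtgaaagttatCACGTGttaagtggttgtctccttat
Apex1, shared start with Osgep (chr14:50924905-50924950): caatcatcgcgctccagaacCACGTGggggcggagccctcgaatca
Pms2, shared start with Aimp2 (chr5:143909572-143909601): cgctcctacctgCACGTGgcccgcgtcggt

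The share of repair genes that carried a BMAL1 peak followed the length of each list and the share of all genes. In control replicates 1 to 3, 3, 7 and 13 of the 51 genes were called (5.88%, 13.7% and 25.5%), beside 9.33%, 10.8% and 25.3% of all protein-coding genes. In senescent replicates 1 to 3, 7, 13 and 8 were called (13.7%, 25.5% and 15.7%), beside 14.4%, 26.5% and 16.6% of all genes. The mean share was 15.0% ± 9.87 in control and 18.3% ± 6.30 in senescent cells (SD, n = 3 each), a difference of 3.27 percentage points that was smaller than either SD. The share of all genes differed by 4.0 points between the same libraries. With as many of the best peaks in every list as the shortest list has, 2794, the repair genes called numbered 3, 6 and 4 in control and 4, 3 and 4 in senescent replicates (5.88%, 11.8% and 7.84%, then 7.84%, 5.88% and 7.84%). All genes then stood at 9.33%, 9.44% and 9.85% in control and 10.3%, 10.4% and 10.3% in senescent replicates. The difference was -1.31 points for the repair genes and 0.797 points for all genes.

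**Figure D1:**
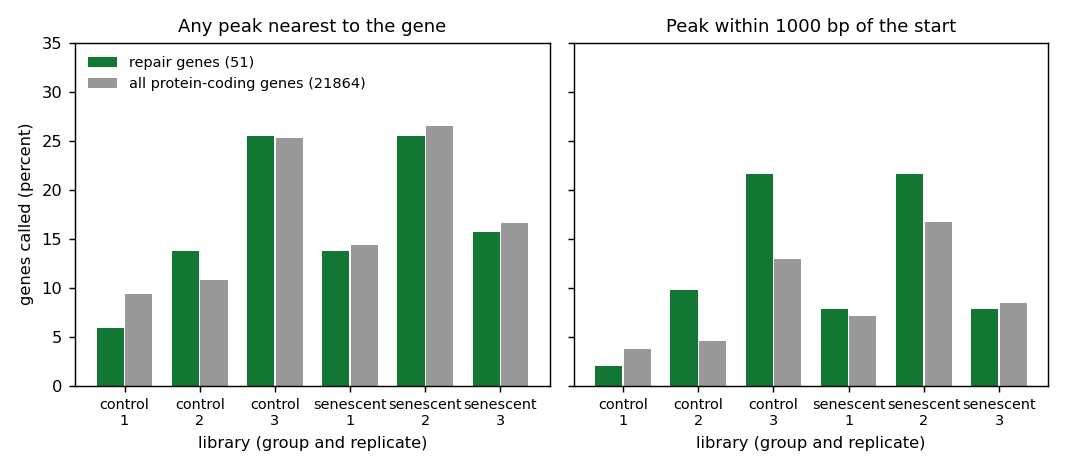
Percent of the 51 repair genes (green) and of all 21864 protein-coding genes (grey) called in each of the 6 libraries, for any peak nearest to the gene (left) and for a peak within 1000 bp of its start (right), 1 bar per library and set. In the left panel both bars are lowest in control 1 (5.88% and 9.33%) and among the highest in senescent 2 (25.5% and 26.5%), and the largest gap is at promoters in control 3 (21.6% against 12.9%).

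Promoter peaks were found at 1, 5 and 11 repair genes in control (1.96%, 9.80% and 21.6%) and at 4, 11 and 4 in senescent replicates (7.84%, 21.6% and 7.84%). The shares of all genes were 3.72%, 4.53% and 12.9% in control and 7.15%, 16.7% and 8.39% in senescent replicates. The difference between groups was 1.31 points for the repair genes and 3.68 points for all genes, both smaller than the SD of each group.

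Over all 6 libraries, 22 of the 51 genes (43.1%) were called at least once, beside 36.4% of all genes, and 20 (39.2%) had a promoter peak at least once, beside 21.7%. Of the 22 called genes, 10 were called in a single library, 10 in 2 to 5 libraries and 2 in all 6. By role, peaks were called at 5 of 8 genes of break signalling, 1 of 5 of the replication checkpoint, 2 of 10 of homologous recombination, 2 of 5 of end joining, 6 of 9 of nucleotide excision, 4 of 6 of base excision, 2 of 5 of the Fanconi and RecQ helicase group, and none of the 3 mismatch repair genes.

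The starts of the repair genes also differed from those of all genes in base composition, whose part in the share with a promoter peak was not tested. A CpG-rich start, here at least 50% GC and an observed CpG number at least 0.6 of that expected in the 500 bp to each side of the gene's 5′ end, was found at 43 of the 51 repair genes (84.3%) and at 44.4% of all genes. Among genes with such a start, 16 of the 43 repair genes (37.2%) and 36.9% of all genes had a promoter peak in at least 1 library. Among genes with other starts, the numbers were 4 of 8 repair genes (Ercc1, Rad51b, Xrcc5 and Xrcc6) and 9.59% of all genes. Base composition and the sequence words below were scored at the gene's 5′ end alone. A promoter peak could lie at another start of the gene, as at Xrcc6. An E-box lay within 500 bp of the 5′ end of 10 repair genes (19.6%), beside 17.0% of all genes. An AP-1 word lay there at 3 (5.88%), beside 12.1%. Of the 20 repair genes with a promoter peak, 5 (25.0%) had such an E-box, beside 31.7% of all genes with a promoter peak. The 3 genes with an AP-1 word were all among these 20 (15.0%), beside 10.6% of all genes with a promoter peak.

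**Figure D2:**
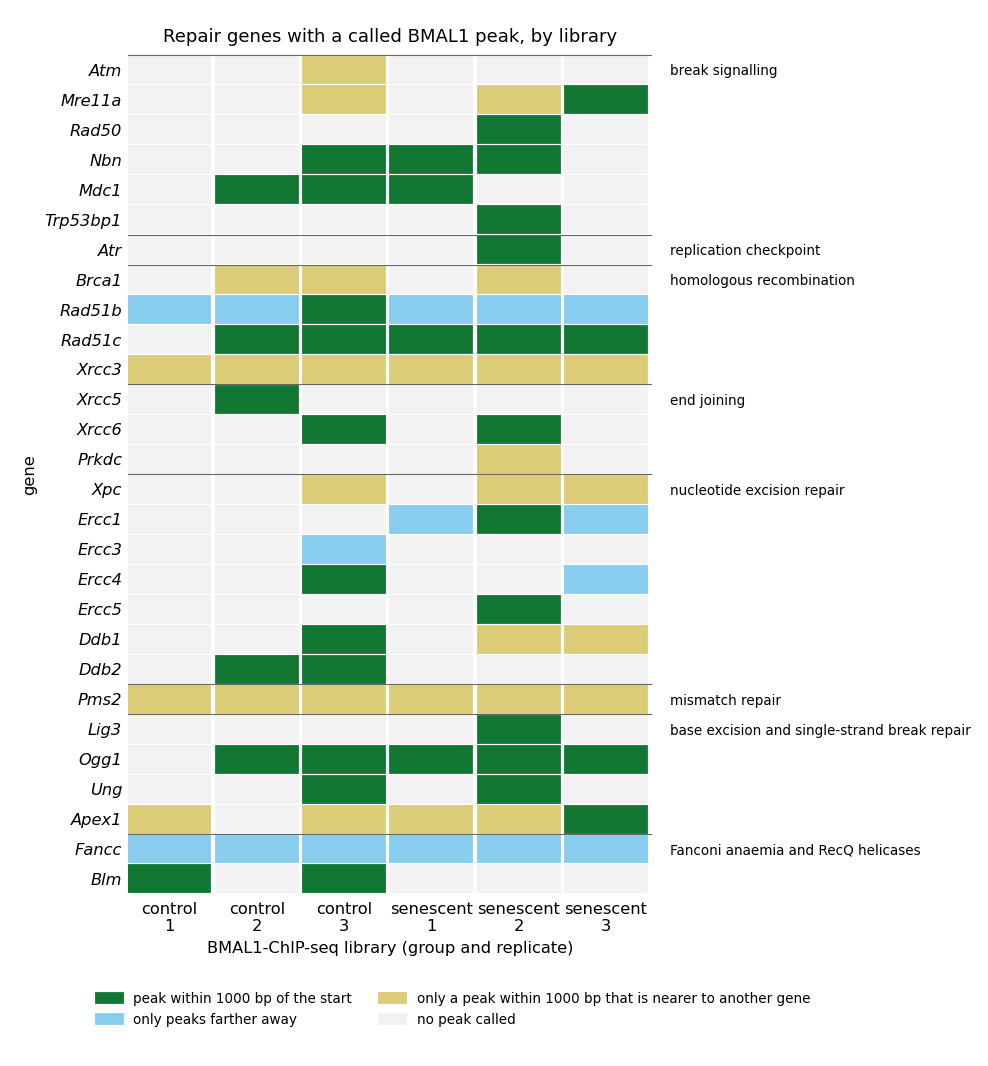
The 28 repair genes with a peak of their own or a peak within 1000 bp of their start, by role (rows), in the 6 libraries (columns); green marks a promoter peak, blue only peaks farther away, yellow only a peak near the start that is nearer to another gene, and pale grey no peak. Rad51b and Fancc were called in all 6 libraries, Ercc1 in the 3 senescent and no control libraries, and Xrcc3 and Pms2 have a peak in every library that was counted for a neighbour.

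In break signalling, the NBN gene was called in 3 libraries. The region lay 607 bp inside Nbn, in its intron, with the E-box printed above. It ranked at 21.2% of the list in control 3, 70.2% in senescent 1 and 72.7% in senescent 2, where 0% is the strongest peak. The senescent 2 peak, 387 bp inside the gene, did not overlap the control 3 peak and had no E-box within 100 bp. Mdc1, whose product binds the phosphorylated histone H2AX at breaks, had a peak at its start at 39.3% and 44.0% of the lists of control 2 and 3 and at 92.5% in senescent 1. Mre11a and Rad50, the nuclease and the tether of the complex, and Trp53bp1, which steers breaks towards end joining, were each called in 1 senescent library, at 92.0%, 14.0% and 90.3% of the list. Atr, the kinase of stalled forks, was called in senescent 2 alone, at 31.2%. Rnf8 and Rnf168, ubiquitin ligases of the cascade, and Atrip, Topbp1, Rad17 and Timeless of the replication checkpoint had no peak in any library.

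In homologous recombination, Rad51b and Rad51c, which act in strand exchange, were the called genes. Rad51b (ENSMUSG00000059060, chr12:79297282-79814690, plus strand) was called in all 6 libraries, as were 5.14% of all genes. The stretch of genome nearer to its starts than to those of other genes was 408 kb, beside a median of 47.3 kb for all genes. Of all genes split by this length into 3 equal groups, 28.9% of the shortest and 46.5% of the longest were called at least once. The part of this length in the calls of Rad51b was not tested. Rad51b had 2, 7 and 10 peaks in control and 1, 3 and 2 in senescent replicates. The strongest region of the senescent replicates was the same in all 3, the intronic E-box region at 4460 bp, at 40.0%, 28.0% and 40.6% of the lists. That region was also called in control 2 and 3, at 32.3% and 59.7%. The best peak of control 1 was the composite AP-1 and E-box region at 57290 bp, at 29.1%, and that of control 3 lay 217372 bp inside the gene, at 12.4%. The composite region was called in all 3 control replicates, at 29.1%, 37.8% and 16.5%, and in senescent 2 and 3, at 74.2% and 51.5%, with every control value ahead of both senescent ones. Among the 132 regions of the series called in 3 control and 2 senescent libraries, 25.0% had that order.

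The rank of Rad51b's best peak was compared among the 1124 genes called in all 6 libraries, where rank 1 is the strongest. It ranked 619, 709 and 772 in control and 863, 983 and 919 in senescent replicates, with every control library ahead of every senescent one. As a percent of the whole list the groups overlapped, senescent 2 at 28.0% being ahead of control 1 at 29.1% and control 2 at 32.3% (exact permutation p = 0.3). By rank, the means were 700 ± 76.9 and 922 ± 60.0 (SD, n = 3 each), a difference of 222 ranks with p = 0.1 in the exact two-sided permutation test, the smallest p that 3 against 3 allows. Adjusted over the 1124 genes by Benjamini-Hochberg, the p of this exact test was 0.272. Among the same genes, 18.4% were ahead in every control library and 18.3% in every senescent library. The best peaks are not the same region in every library, so the difference is one of the gene and not of a site.

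Rad51b also took a larger part of the control lists. Its peaks made up 7.16, 20.9 and 9.43 per 10000 peaks of the control lists and 2.37, 3.06 and 3.96 of the senescent lists, which do not overlap (12.5 ± 7.37 against 3.13 ± 0.796, SD, n = 3 each, exact permutation p = 0.1). A measure chosen after the values were seen, it separated the groups in this direction at 10.9% of the 1124 genes and in the other at 2.85%. Intronic regions between 174422 and 234227 bp inside Rad51b were called in 2 control replicates each and in no senescent one.

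**Figure D3:**
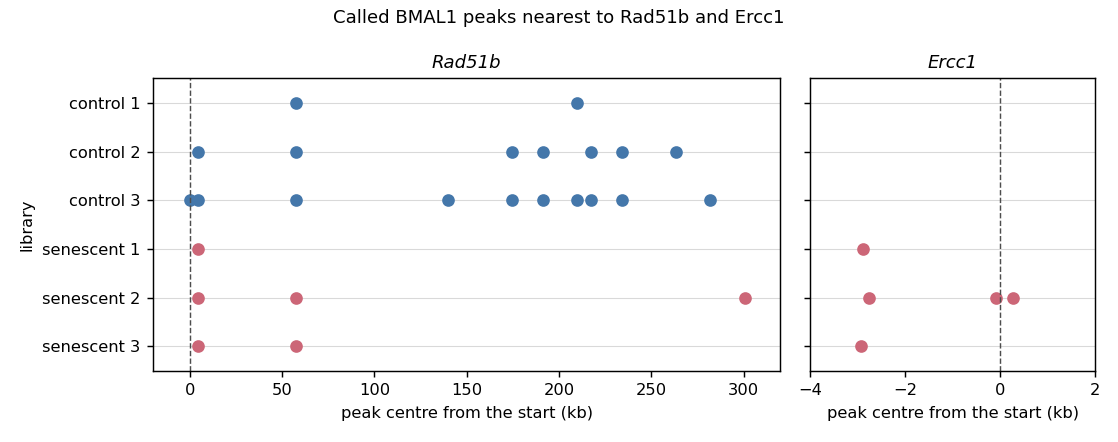
Called peaks nearest to Rad51b (left) and Ercc1 (right), 1 point per peak, in each library (rows, control blue and senescent red), by distance of the peak centre from the nearest start site in kb, with the dashed line at the start and positive values inside the gene. The Rad51b regions at 4460 and 57290 bp recur in both groups while those from 174422 to 234227 bp are in control libraries, and Ercc1 has points in the 3 senescent rows alone.

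Rad51c (ENSMUSG00000007646, chr11:87376645-87404954, minus strand) had a promoter peak in 5 libraries, 102 bp upstream of a start and within a coding exon of a transcript that begins farther upstream. It ranked at 56.1% and 36.9% of the lists of control 2 and 3 and at 30.9%, 14.0% and 35.7% in senescent replicates, and it was not called in control 1. Each senescent value was ahead of both control values, the nearest pair by 36.9% against 35.7%, an order found at 21.8% of the 197 genes with a promoter peak in 2 control and 3 senescent libraries. No E-box or AP-1 word lay within 100 bp of the peak. The remaining genes of the route were not called: Brca2, Palb2 and Bard1 of the BRCA complex, Rad52, Rad54l and Xrcc2 had no peak in any library, and Brca1 and Xrcc3 had peaks that are nearer to a neighbour.

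In end joining, Xrcc6, which encodes the Ku70 subunit of the Ku ring that caps broken ends, was called in control 3 and senescent 2, at 36.7% and 42.0% of the list, at the start of an internal transcript. Xrcc5, which encodes Ku80, was called in control 2 alone, at 90.7%. Xrcc4 and Lig4, which seal the ends, had no peak in any library.

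In nucleotide excision, Ercc1 was the repair gene called in at least 2 senescent libraries and in no control library, 7 others being called in a single senescent library and no control one. Its product pairs with that of Ercc4 in the nuclease that cuts 5′ of a bulky lesion. Ercc1 (ENSMUSG00000003549, chr7:19344778-19356524, plus strand) had a region at chr7:19341785-19342236, 2764 bp upstream of its start, called in 0 of 3 control and 3 of 3 senescent libraries. The region held the E-box printed above and 1 AP-1 word, the latter not within 100 bp of the best peak's centre. It lay outside protein-coding genes and 501 bp from the start of the lincRNA D830036C21Rik, and ranked at 76.9%, 28.7% and 62.6% of the senescent lists. Senescent 2 had further peaks inside the gene, 79 bp before and 269 bp past an internal transcript start, at 98.0% and 54.7%. A gene called in at least 2 libraries of senescent cells and in 0 of control cells was 1 of 51 here, beside 3.43% of all genes. With the best 2794 peaks of each list it was called in no library.

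The opposite pattern was found at Ddb2 and Blm, 2 of the 51 genes, beside 1.64% of all genes. Ddb2, which recognises ultraviolet lesions in chromatin, had a promoter peak 192 bp upstream, at 49.1% and 52.8% of the lists of control 2 and 3. The peak centre was 28 bp from the start of the lincRNA A330069E16Rik. Blm, the helicase mutated in Bloom syndrome, had a promoter peak 107 bp upstream, at 45.7% and 69.2% of the lists of control 1 and 3. Neither gene was called in a senescent library. Both regions were promoter peaks, a pattern found at 0.366% of all genes, and the reverse one, promoter peaks in at least 2 senescent and 0 control libraries, was found at no repair gene, beside 2.13%. Both calls rest on control 3, the longest list: without it no repair gene met the rule in control cells, and Ercc1 and Nbn met it in senescent cells. Without control 1 Ddb2 alone met it, without control 2 Blm alone, and without senescent 1 Mdc1 joined them.

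Of the other nucleotide excision genes, Ddb1, the partner of DDB2, was called at its start in control 3, at 37.7%, and had peaks nearer to its neighbour Tkfc in senescent 2 and 3. Ercc3, a helicase of TFIIH, and Ercc5, the nuclease that cuts 3′ of a lesion, were called in 1 library each, and Ercc4 in control 3 and senescent 3, at 75.9% and 73.4% of the lists, at its start in the control library and 50883 bp past it in the senescent one. Xpa and Ercc2 had no peak in any library.

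In base excision, Ogg1, the glycosylase that removes oxidised guanine, had a promoter peak in 5 libraries. Ogg1 (ENSMUSG00000030271, chr6:113326972-113335068, plus strand) was called 205 bp upstream of its start, 20 bp from the start of the antisense gene Gm15492, at 62.6% and 13.9% of the lists of control 2 and 3 and at 55.6%, 61.4% and 90.6% of the senescent lists. These ranks overlapped between the groups, and no E-box or AP-1 word lay within 100 bp. Ung, the uracil glycosylase, was called in control 3 and senescent 2, at 67.7% and 57.2%. Lig3, the ligase partner of XRCC1, was called in senescent 2 alone, at 54.0%, with CACGTG near the peak centre. Xrcc1 and Lig1 had no peak in any library.

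In the Fanconi and RecQ group, Fancc (ENSMUSG00000021461, chr13:63285043-63497278, minus strand), a subunit of the core complex, was called in all 6 libraries, with no peak within 1000 bp of a start. The stretch of genome nearest to a Fancc start was 275 kb, beside the median of 47.3 kb for all genes. Of the 52 Fancc peaks, 50 lay inside the gene 2010111I01Rik. Over 150 kb from the nearest Fancc start and past the end of Fancc were 44, so the assignment rests on distance alone. The peaks numbered 3, 5 and 28 in control and 3, 8 and 5 in senescent replicates, that is 10.7, 14.9 and 26.4 per 10000 peaks of the control lists and 7.11, 8.16 and 9.90 of the senescent lists (17.4 ± 8.12 against 8.39 ± 1.41, SD, n = 3 each, exact permutation p = 0.1). As at Rad51b, every control value was above every senescent one, and 28 of the 36 control peaks were in control 3. By this measure, chosen after the values were seen, 10.9% of the 1124 genes had that order and 2.85% the reverse. The best peak of Fancc ranked 900, 879 and 874.5 of 1124 genes in control and 819.5, 1100.5 and 894.5 in senescent replicates, and the groups overlapped (exact permutation p = 0.8). Fanca, Fancd2 and Wrn had no peak in any library.

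**Figure D4:**
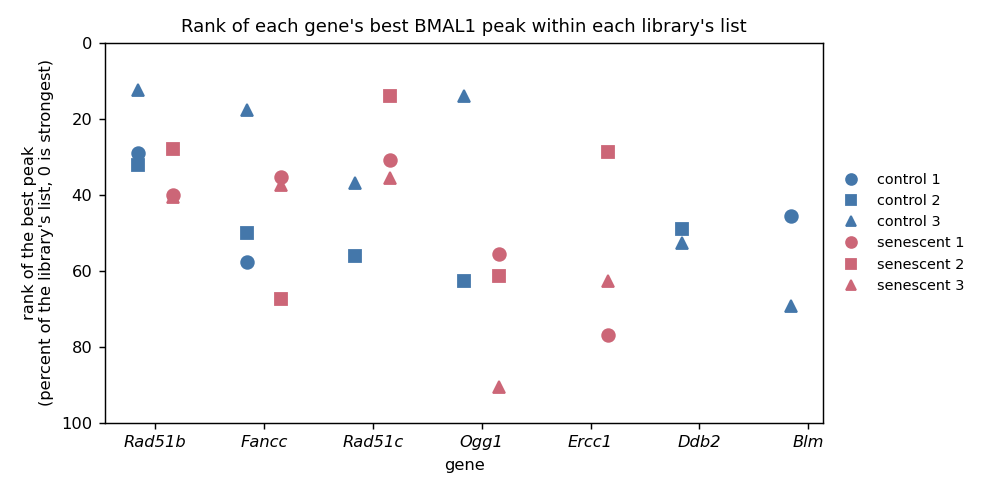
Rank of the best peak of 7 repair genes in each library, as a percent of that library's list (0 at the top is the strongest peak), with control in blue, senescent in red, and the marker shape giving the replicate; a library with no peak has no marker. Rad51c has markers in 5 libraries and its nearest values of the 2 groups are 36.9% and 35.7%, Ercc1 has senescent markers alone, and Ddb2 and Blm have control markers alone.

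Many repair genes start close to a neighbour, and the peaks near some of these starts were counted for that neighbour. Another protein-coding start lay within 1000 bp of a start of 20 of the 51 genes (39.2%), beside 12.3% of all genes. Counting any peak within 1000 bp of a start, also where the neighbour's start is nearer, 26 of the 51 genes had a peak in at least 1 library, beside 23.6% of all genes, and 2 had one in all 6, beside 2.47%. These were Xrcc3, a gene of homologous recombination whose start faces that of Zfyve21, and Pms2, the mismatch repair endonuclease that starts beside Aimp2. The Pms2 and Aimp2 region, centred in a coding exon of Aimp2 with an E-box, ranked at 11.0%, 7.85% and 9.32% of the control lists and 30.5%, 4.99% and 19.0% of the senescent lists. The Xrcc3 and Zfyve21 region ranked at 77.1%, 34.5% and 7.76% in control and 85.6%, 11.2% and 60.1% in senescent replicates. In both regions the groups overlapped.

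The start shared by Apex1, the endonuclease of abasic sites, and Osgep carried a region in 5 libraries, at 47.9% and 23.5% of the lists of control 1 and 3 and 25.9%, 9.41% and 24.2% of the senescent lists, though its peak was nearest to Apex1 in senescent 3 alone. Peaks near the starts of Brca1, Xpc and Mre11a were each found in 3 libraries, and those of Atm and Prkdc in 1 library each, all but 1 of them counted for Nbr1, Lsm3, Ankrd49, Npat and Mcm4. Of the 29 repair genes not called, 6 had such a peak and 23 had none in any library.

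The regions assigned to repair genes numbered 73, of which 23 were at promoters and 50 were distal, and 45 were called in 1 library alone. None was called in all 6 libraries, beside 6.58% of the 16818 regions of the series, and 6 were called in 5. Regions called in at least 2 control and 0 senescent libraries numbered 10, beside 5.86% of all regions. Of the 10, 8 were assigned to Rad51b (5) and Fancc (3), those of Fancc lying inside 2010111I01Rik and outside Fancc itself. Regions with the reverse pattern numbered 2, beside 9.44%, and were assigned to Ercc1 and Fancc but lay outside both genes. Without control 3 the numbers became 1 and 5. By the same rule, without control 2 the regions of control cells numbered 3, and without senescent 1 or senescent 3 those of senescent cells numbered 1.

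CACGTG was found no farther than 100 bp from the centre at 1 of 6, 2 of 17 and 6 of 50 peaks of repair genes in control replicates 1 to 3, and at 4 of 9, 6 of 24 and 4 of 13 in senescent replicates. The shares over all peaks of those libraries were 30.8%, 23.9% and 13.6% in control and 40.0%, 23.2% and 33.2% in senescent replicates. An AP-1 word lay at 1, 4 and 5 of the same control peaks and 1, 1 and 4 of the senescent ones, beside 12.7% to 13.1% of all control peaks and 16.4% to 17.1% of all senescent peaks. Much of these counts comes from 2 genes: of the 73 control peaks, 36 were assigned to Fancc and 19 to Rad51b. Among the 46 senescent peaks the numbers were 16 and 6. Of the 10 repair gene regions with an E-box, 4 were at promoters, and none of the 9 with an AP-1 word was.

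A further list of 104 repair genes, of which 103 were found by name, was examined for the rest of these pathways. Of these, 56 (54.4%) were called in at least 1 library beside 36.4% of all genes, and 45 (43.7%) had a promoter peak, beside 21.7%. Called in all 6 libraries, beside 5.14% of all genes, were Cdk7, the kinase of TFIIH, Parp1 and Parp2, which mark breaks with ADP-ribose, Rad9a of the checkpoint clamp, and the translesion polymerases Poli and Rev1, and 5 of these 6 had a promoter peak in every library, which no gene of the first list had (2.17% of all genes). Among the 1124 genes called in all 6 libraries, Parp1 ranked ahead in every senescent library by a mean of 304 ranks (949 ± 156 in control against 646 ± 89.4). Parp2 ranked ahead in every control library, 538 ± 146 against 806 ± 124, as did Poli, 482 ± 37.8 against 967 ± 137 (exact permutation p = 0.1 for each of these genes and 0.272 adjusted over the 1124, SD, n = 3 per group). As above, 18.3% of the 1124 genes were ahead in every senescent and 18.4% in every control library. The groups overlapped at Cdk7, Rad9a and Rev1 (exact permutation p = 0.5, 0.9 and 0.3). As a percent of the whole list, the groups also overlapped at Parp1, Parp2 and Poli. For Parp1, control 3 at 12.4% was ahead of senescent 3 at 23.1%. For Parp2, senescent 2 at 20.6% was ahead of control 1 at 26.5%. For Poli, senescent 2 at 21.6% was ahead of control 1 at 22.1%. Of the 103 genes, 6 were called in at least 2 senescent and 0 control libraries, beside 3.43% of all genes, and none in the reverse pattern, beside 1.64%.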

How the data were processed

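Primary MAFs were profiled by BMAL1-ChIP-seq in 3 control and 3 senescent libraries, each with an input library that was not used here. Per the study's methods, the authors aligned read pairs to mm10, kept pairs with at least 1 end mapped uniquely and discarded duplicates found with Picard. They called peaks per library with MACS at an FDR of 1%, and the track headers place the 6 libraries in the same lane. The deposited score of each peak was taken to be a −log10 q-value, as the lowest scores of the lists (2.02 to 2.12) fit that cutoff, though no header names it. It was used only to rank peaks within a list, since such a score grows with depth. Peak number is then partly a matter of depth, which is unknown, and a longer list calls more genes.

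The 35822 peaks were assigned by midpoint to the nearest of 41451 start sites of protein-coding transcripts (GENCODE M21), and 17 peaks equally near to more than 1 gene counted for each. Genes described with values were those called in all 6 libraries, those called in at least 2 libraries of 1 group and 0 of the other, and those with a promoter peak in at least 4 libraries, and the others are accounted for by role. Ranks were compared by an exact permutation test over the 20 arrangements of 6 libraries. Counts over the genes are described beside all genes, with no test. The genes and the further list were chosen with earlier results of these data known. The calculations used Python 3.11.15, numpy 2.4.6 and pysam 0.24.0, and were tested on simulated data. Alternatives were a stricter score, equal peak numbers, other start sites and distances, and leaving out each library.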

Additional observations from a re-analysis of the deposited data

How the results depend on the processing

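Most of the group differences were small beside the spread and depended on list length. With equal peak numbers the difference in repair genes called became -1.31 points, and that in promoter peaks -1.31, and with peaks above the median score promoter peaks became -1.96, where all genes stood at 0.797, 1.18 and 1.88. Leaving out each library gave -1.31 to 8.50 points for genes called and -3.27 to 6.54 for promoter peaks, negative in each case without control 1 or without senescent 2. Genes called in at least 2 libraries of senescent and 0 of control cells (Ercc1) numbered 0 at the stricter score and at equal peak numbers, and 1 to 2 when a library was left out. Those called in at least 2 libraries of control and 0 of senescent cells numbered 1 at the stricter score (Mdc1 in place of Ddb2 and Blm), 0 at equal peak numbers, and 0 to 3 when a library was left out. Genes called in every library numbered 1 at the stricter score and at equal peak numbers (Rad51b), 0 with peaks within 50000 bp alone, and 2 to 4 when a library was left out, Rad51c and Ogg1 joining without control 1. By the same rule, regions in control cells numbered 2 at the stricter score and 2 at equal peak numbers, and 1 to 11 without each library. Those in senescent cells numbered 0 and 1, and 1 to 5, and these region settings were chosen after seeing the data. The rank difference of Rad51b kept its direction under every alternative, from 189 to 307 without each library, with 62.0 at the stricter score and 147 at equal peak numbers, where fewer genes are ranked, and exact p from 0.1 to 0.3. That of Fancc ran from -33.5 (without senescent 2) to 123, and Fancc was not called in all 6 at the stricter score or equal peak numbers. The replicate numbers are shared by the groups. Over the ranks of the genes called in all 6 libraries, deviations of same-numbered libraries correlated at 0.0576, -0.0275 and 0.0136. Those of differently numbered libraries correlated at -0.0673 to 0.0496. Such correlations cannot tell whether same-numbered libraries were paired, as they cover only those genes. With the replicate block the Rad51b difference was 222 and the Fancc difference 53.7 (exact sign-flip p = 0.25, the smallest that 3 pairs allow, and 0.75). Read depth was not available, and peaks missing from the short lists may lie below their threshold.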
